A study of Mus musculus with 6 samples.

Results

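The 9 genes described here encode the subunits of AMP-activated protein kinase (AMPK) and its main upstream kinases. They are the catalytic subunit genes Prkaa1 and Prkaa2, the scaffold subunit genes Prkab1 and Prkab2, the nucleotide-binding subunit genes Prkag1, Prkag2 and Prkag3, and the kinase genes Stk11 (LKB1) and Camkk2. They were taken by symbol from a table of read counts on 34714 gene symbols, and each of the 9 had a row. All 9 were among the 15788 genes that passed the filter on low counts. RNA was from the gastrocnemius (Gas) muscle of 3 wild-type (WT) mice and 3 mice with a global knockout of miR-92b (M92KO), with 3 labelled replicates in each genotype. Both groups were 8 weeks old, received no treatment and were kept with free access to a standard diet. The M92KO mice carried the Mir-92bem22Cd549 allele on the C57BL/6JGpt background, and the study's methods describe male knockout mice with age-matched C57BL/6 controls. The deletion was present in every cell of the body and from conception, so an effect within muscle fibres and an effect from other tissues cannot be told apart in these libraries. Mir92b itself was not analysed here, so the labels were not checked by the deleted gene.

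AMPK is a heterotrimer of a catalytic α, a scaffold β and a nucleotide-binding γ subunit, each encoded by more than 1 gene. The γ subunit binds AMP, ADP and ATP, the β subunit holds the complex together and can bind glycogen, and the α subunit phosphorylates substrates once LKB1 or CaMKK2 has phosphorylated a threonine in its activation loop. In skeletal muscle the kinase is switched on by contraction and energy shortage, and it is known for promoting glucose uptake and fatty acid oxidation and for restraining glycogen and lipid synthesis. The study asked how miR-92b acts on glycogen and lactate metabolism in muscle. The comparison of M92KO with WT libraries asked whether the RNA of this kinase differed when miR-92b was missing. RNA levels do not measure phosphorylation or kinase activity.

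A microRNA pairs with messenger RNAs mainly through its seed, bases 2 to 8 from its 5′ end. Both mature products of Mir92b are lost in the M92KO mice, so both sequences are shown, 5′ to 3′, as RefSeq gives them for the minus strand of GRCm38.p6, with the seed in capitals. The 3p product lies at chr3:89227126-89227147 and the 5p product at chr3:89227165-89227188.
miR-92b-3p: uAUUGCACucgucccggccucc
miR-92b-5p: aGGGACGGgacguggugcaguguu

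The 3′-UTRs of the members in the GENCODE M21 annotation of GRCm38 were searched on the transcribed strand for matches to these seeds. A match to the miR-92b-3p seed is, written as DNA, the 8mer GTGCAATA, the 7mer-m8 form GTGCAAT, the 7mer-A1 form TGCAATA or the 6mer TGCAAT, where the shorter ones are also part of the longer and each site was counted as its longest form. For miR-92b-5p the 8mer is CCGTCCCA, the 7mer-m8 is CCGTCCC, the 7mer-A1 is CGTCCCA and the 6mer is CGTCCC. The longest 3′-UTR of 4 of the 9 members held a 7mer match for miR-92b-3p, and 0 of the 9 held an 8mer. Among the 13665 tested genes with an annotated 3′-UTR, 13.8% held a 7mer or 8mer and 2.74% an 8mer. The members' longest 3′-UTRs had a median length of 1257 bases, against 1188 bases over those genes, and ranged from 440 bases in Stk11 to 6218 bases in Prkaa2. The 4 members with a 7mer for miR-92b-3p had 2967 (Prkaa1), 6218 (Prkaa2), 4007 (Prkab2) and 1112 bases (Prkag2). Those without one had 3502 (Camkk2), 1257 (Prkag3), 1063 (Prkab1), 576 (Prkag1) and 440 bases (Stk11). Prkaa2, the member with the longest 3′-UTR, held 2 of the 7mers. The part of length in these counts was not tested. A match is a run of letters and was not tested for binding.

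The 7mer matches in these 3′-UTRs are shown with the bases on either side, the matched bases in capitals, because they are the positions where the lost microRNAs could pair with members of the kinase. They lie on the strand of the gene at chr15:5178959-5178965 (plus), chr4:105030970-105030976 and chr4:105035995-105036001 (minus), chr3:97672741-97672747 (plus) and chr5:24863772-24863778 (minus) for miR-92b-3p, in the order printed, and at chr3:97672596-97672602 (plus) for miR-92b-5p. All coordinates are of GRCm38. The sites of Prkaa2 are printed in order of coordinate, so the one labelled first lies nearer the 3′ end of the transcript.
Prkaa1, miR-92b-3p: tttctttgaTGCAATAagcatgcat
Prkaa2, miR-92b-3p, first: atatttaaaGTGCAATtaaggaaat
Prkaa2, miR-92b-3p, second: tacgtgctcTGCAATAgaagttggt
Prkab2, miR-92b-3p: aaaacaataTGCAATAgtccctgtg
Prkag2, miR-92b-3p: aacactggcTGCAATAgaagagagt
Prkab2, miR-92b-5p: ttcgcccagCCGTCCCtgctggttt

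In its longest 3′-UTR, Prkab2 was the member with a 7mer match to each of the 2 products. For miR-92b-5p it was 1 of 9 members, against 5.57% of genes. The matches of Prkaa1 and Prkag2 were in each of their 2 and 3 transcripts with a 3′-UTR, whereas the 7mer matches of Camkk2 were in 1 of its 5 transcripts and not in the longest 3′-UTR. Prkab1 held 6mer matches for miR-92b-3p. In the longest 3′-UTRs of Prkag1, Prkag3, Stk11 and Camkk2 none of these letters was found for miR-92b-3p.

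The libraries held between 33160508 and 48209846 counts, with 38246649 to 48209846 in WT and 33160508 to 37019640 in M92KO. Values are CPM (counts scaled to a common library size) after TMM scaling, a factor per library that aligns the bulk of genes. A count of 3, used as the floor of detection, corresponds to 0.0628 to 0.0916 CPM. The smallest count of any member was 223, for Camkk2. The defining genes of fast muscle were among the most abundant transcripts, with Acta1 (skeletal actin) between 25633 and 27444 CPM and Ckm (muscle creatine kinase) between 13542 and 17496 CPM in the 6 libraries, as the label of the tissue says. The M92KO library 1 stood apart. It was the highest or the lowest of the 6 libraries in 50.4% of the 15788 genes, against 23.2% to 35.3% for each of the other 5, and it had less RNA of the fast myosin gene Myh1 (9659 CPM, the others 14339 to 17196) and more of Myh4 (31500 CPM, the others 22933 to 28830). It was also the highest or lowest library in 5 of the 9 members. Results are therefore given with and without this library where it moved, and its part in the results was not otherwise tested. The library was singled out from these same counts, and leaving it out leaves fewer M92KO libraries. The p-values and calls without it are therefore descriptions only.

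M92KO was compared with WT by edgeR's quasi-likelihood test on the counts, with p-values adjusted over all genes tested by the Benjamini-Hochberg method. None of the 9 members passed an adjusted p of 0.05, and neither did any other gene (0%). DESeq2's Wald test called 322 of 13335 genes with an adjusted p (2.41%), again with 0 of the 9 members. At an unadjusted p under 0.05, edgeR gave 1 of the 9 members, Prkag2, which was higher in M92KO, against 12.4% of all genes tested (5.47% higher and 6.92% lower). In 2 of the 9, Prkag1 and Prkag2, every M92KO library lay above every WT library. Over all genes, 18.4% had groups that did not overlap, 8.77% with M92KO higher. The members' median log2 fold change was 0.07, with 7 above 0 and 2 below, beside a median of -8e-05 over all genes. Most members thus lay within the spread between mice. The labels number the replicates without saying more of how they were taken, and these p-values measure only the spread between the samples.

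**Figure D1:**
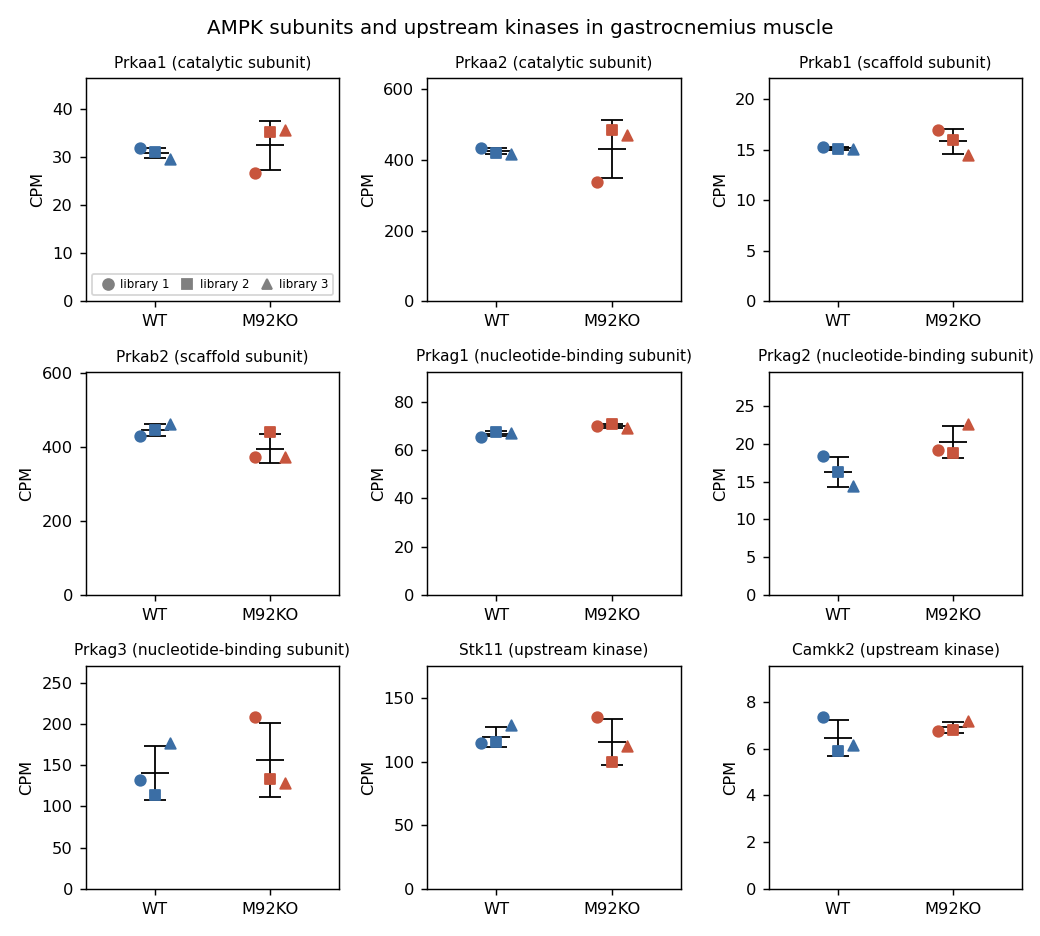
RNA level in CPM (vertical axis, starting at 0) of the 9 genes in 3 WT (blue) and 3 M92KO (red) gastrocnemius libraries, with the marker shape giving the library number and the bars the mean ± SD of 3 libraries. The groups do not overlap in Prkag1 and Prkag2, and in Prkaa1 and Prkaa2 the M92KO library 1 lies below all others.

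Prkaa2 encodes α2, the catalytic subunit that is known to predominate in skeletal muscle. It had 434, 420.5 and 418 CPM in WT libraries 1 to 3 and 336, 485 and 469 CPM in M92KO libraries 1 to 3. The 3 WT values lay close together, whereas M92KO library 1 was below all of them and M92KO libraries 2 and 3 were above. The means were 424 ± 8.71 CPM (n = 3, SD) in WT and 430.1 ± 81.7 CPM (n = 3, SD) in M92KO, a log2 fold change of 0.02 (standard error [SE] 0.13, 95% interval -0.27 to 0.31, edgeR adjusted p = 0.968). The 2 groups could not be told apart by an exact permutation test either (two-sided p = 1.0, where 3 against 3 libraries cannot go below 0.1). Without M92KO library 1 the log2 fold change was 0.17 (adjusted p = 0.122 from edgeR), and the fits that each dropped 1 library ran from -0.08 to 0.17, so its direction depended on which mice were included.

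Prkaa1 encodes α1, the catalytic subunit found in most tissues. Prkaa1 stood at 31.8, 31.0 and 29.7 CPM in WT and 26.7, 35.2 and 35.7 CPM in M92KO, with the same library low in the knockout group as for Prkaa2. Its log2 fold change was 0.08 (SE 0.11, 95% interval -0.18 to 0.33, edgeR adjusted p = 0.834), and 0.20 without M92KO library 1 (adjusted p = 0.143). Of the 9 members, Prkaa1 and Prkaa2 were the pair with the most similar profile over the 6 libraries, with a root mean square difference of 0.052 between their log2 CPM values after each was centred on its own mean. That pair shares its libraries and the same outlying one, and the measure is a description. In M92KO the SD of log2 CPM was 0.23 for Prkaa1 and 0.29 for Prkaa2, against 0.050 and 0.029 in WT, whereas the median SD over all genes was 0.148 in M92KO and 0.096 in WT.

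The balance between the catalytic genes was compared after dividing CPM by the length of each gene's annotated exons in kilobases, since a longer transcript collects more reads. On this scale Prkaa2 made up 88.8%, 88.8% and 89.2% of catalytic subunit RNA in WT and 88.0%, 88.9% and 88.5% in M92KO. The mean share was 88.9% ± 0.20 (SD, n = 3) in WT and 88.5% ± 0.451 (SD, n = 3) in M92KO (two-sided exact permutation test, p = 0.3). The M92KO library that was low in both genes thus kept nearly the same proportion between them. Summed over both genes, catalytic subunit RNA was 59.8 ± 1.30 CPM per kb (n = 3, SD) in WT and 60.95 ± 11.3 CPM per kb (n = 3, SD) in M92KO.

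Prkab2 encodes β2, the scaffold subunit known to be abundant in muscle. It stood at 429.6, 444.5 and 462 CPM in WT and 372, 439.6 and 372 CPM in M92KO. M92KO libraries 1 and 3 were below every WT library and M92KO library 2 lay between WT libraries 1 and 2. The means were 446 ± 16.4 CPM (n = 3, SD) and 394 ± 39.3 CPM (n = 3, SD), a log2 fold change of -0.18 (SE 0.085, 95% interval -0.37 to 0.02, edgeR adjusted p = 0.459, two-sided exact permutation p = 0.2). It was the most negative of the 9 and kept its sign whichever library was dropped (-0.26 to -0.14). Prkab2 carries the 7mer matches to both miR-92b products printed above, and whether they bear on its level was not tested.

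Prkab1 encodes β1, the other scaffold subunit. Its levels were 15.30, 15.09 and 15.02 CPM in WT and 16.95, 15.96 and 14.51 CPM in M92KO, where 2 libraries lay above and 1 below the narrow WT range. M92KO and WT differed by a log2 fold change of 0.06 (SE 0.088, 95% interval -0.14 to 0.26, edgeR adjusted p = 0.828).

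Per kilobase, Prkab2 was the larger part of scaffold subunit RNA by far, at 94.4%, 94.7% and 94.9% in WT and 93.0%, 94.3% and 93.9% in M92KO. Every M92KO share was below every WT share. The means were 94.7% ± 0.233 (SD, n = 3) and 93.7% ± 0.696 (SD, n = 3), a difference of -0.93 percentage points whose two-sided exact permutation p of 0.1 is the smallest this design allows. Without M92KO library 1 the difference was -0.54 percentage points. Scaffold subunit RNA in all was 92.4 ± 3.18 CPM per kb (n = 3, SD) in WT and 82.5 ± 7.76 CPM per kb (n = 3, SD) in M92KO (two-sided exact permutation p = 0.2).

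Prkag3 encodes γ3, the nucleotide-binding subunit whose expression is largely restricted to fast glycolytic muscle. Its values were 131, 114 and 177 CPM in WT and 208, 133 and 128 CPM in M92KO. It varied more between mice of the same genotype than any other member, by 1.56 times from the lowest to the highest library in WT and by 1.62 times in M92KO, and the groups overlapped. The log2 fold change was 0.15 (SE 0.21, 95% interval -0.33 to 0.63, edgeR adjusted p = 0.828), and its sign turned without M92KO library 1, to -0.11. This is the widest interval of the 9, and it holds the log2 fold change of each other member.

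Prkag1 encodes γ1, the subunit found in most tissues. It had 65.5, 67.5 and 67.2 CPM in WT and 69.97, 70.9 and 69.1 CPM in M92KO, so that every M92KO library was above every WT library by a small margin. The means were 66.7 ± 1.07 CPM (n = 3, SD) and 69.98 ± 0.891 CPM (n = 3, SD), a log2 fold change of 0.07 (SE 0.059, 95% interval -0.07 to 0.20, edgeR adjusted p = 0.698, two-sided exact permutation p = 0.1). It was the steadiest member. The highest library was 1.03 times the lowest within each genotype, and the log2 fold change was 0.06 to 0.08 whichever library was dropped.

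Prkag2 encodes γ2, the subunit best known from the heart, where mutations cause a glycogen storage cardiomyopathy. Its levels were 18.3, 16.2 and 14.4 CPM in WT and 19.2, 18.8 and 22.7 CPM in M92KO. All 3 M92KO libraries were above the 3 WT libraries, and the gap between the groups, from WT library 1 to M92KO library 2, was smaller than the range within either. The means were 16.3 ± 1.98 CPM (n = 3, SD) and 20.2 ± 2.12 CPM (n = 3, SD), 1.24 times as high in M92KO. The log2 fold change was 0.31 (SE 0.12, 95% interval 0.04 to 0.58), with an unadjusted p of 0.0272 and an adjusted p of 0.349 from edgeR and a two-sided exact permutation p of 0.1. Dropping 1 library at a time gave 0.22 to 0.40, with an unadjusted p under 0.05 in 3 of those 6 fits, and was 0.35 without M92KO library 1. Prkag2 holds one of the 7mer matches to miR-92b-3p. So do Prkaa1, Prkaa2 and Prkab2, whose groups overlapped, and whether the matches bear on these levels was not tested.

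On the scale of CPM per kb, Prkag3 and Prkag1 supplied nearly all of the nucleotide-binding subunit RNA. The share of Prkag3 was 52.0%, 47.9% and 59.3% in WT and 61.6%, 50.5% and 49.6% in M92KO, with means of 53.1% ± 5.74 (SD, n = 3) and 53.9% ± 6.69 (SD, n = 3) that did not differ beyond the spread (two-sided exact permutation p = 0.8). Prkag1 made up 43.3% ± 5.10 (SD, n = 3) in WT and 41.98% ± 5.93 (SD, n = 3) in M92KO. Prkag2, the member with the smallest unadjusted p, was 3.58% ± 0.745 (SD, n = 3) and 4.09% ± 0.882 (SD, n = 3) of this RNA (two-sided exact permutation p = 0.5).

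**Figure D2:**
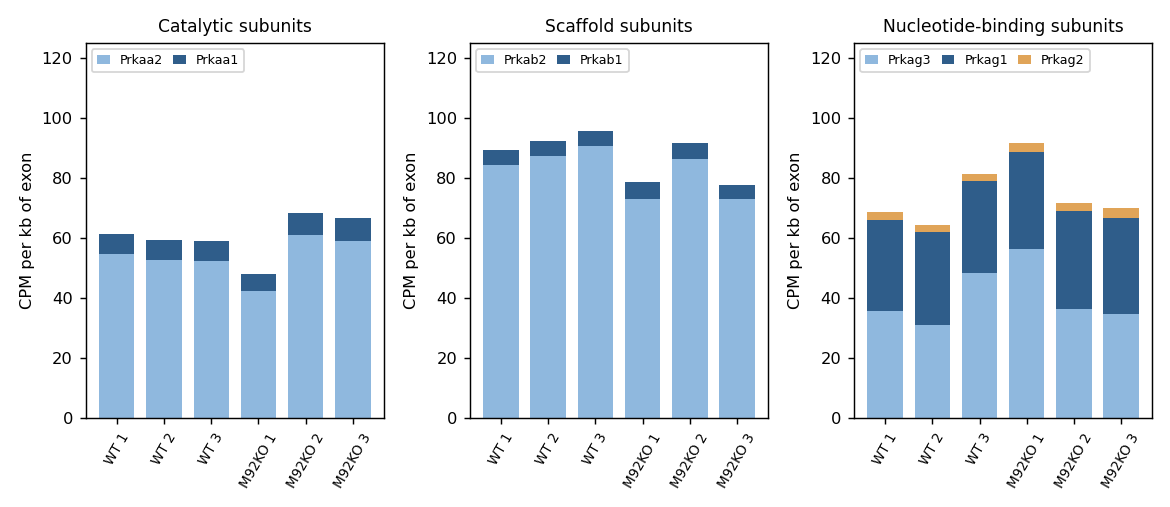
Level per kilobase of exon (CPM per kb, vertical axis starting at 0) of the catalytic, scaffold and nucleotide-binding subunit genes, stacked by gene for each of the 6 libraries. Prkaa2 and Prkab2 fill most of their columns in every library, Prkag3 and Prkag1 share theirs, and the catalytic column is lowest in M92KO library 1, where the Prkag3 part is tallest.

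Stk11 encodes LKB1, the kinase that activates AMPK when energy is short and is active in a complex with the STRAD and MO25 proteins. Its levels were 115, 115 and 129 CPM in WT and 135, 99.5 and 112 CPM in M92KO, so that M92KO library 1 was the highest of the 6 and M92KO libraries 2 and 3 were the lowest. The log2 fold change was -0.05 (SE 0.11, 95% interval -0.30 to 0.20, edgeR adjusted p = 0.899665). Leaving out each library in turn gave values from -0.18 to 0.05, with -0.18 without M92KO library 1 (edgeR adjusted p = 0.267).

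Camkk2 encodes the calcium-dependent kinase that can activate AMPK independently of LKB1. It was the least abundant member, with 7.33, 5.90 and 6.16 CPM in WT and 6.73, 6.81 and 7.18 CPM in M92KO, and all 3 knockout values lay within the WT range. Its log2 fold change was 0.10 (SE 0.12, 95% interval -0.18 to 0.37, edgeR adjusted p = 0.806). Per kilobase, the log2 ratio of Stk11 to Camkk2 was 5.47 ± 0.220 (SD, n = 3) in WT and 5.31 ± 0.239 (SD, n = 3) in M92KO (two-sided exact permutation p = 0.4).

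**Figure D3:**
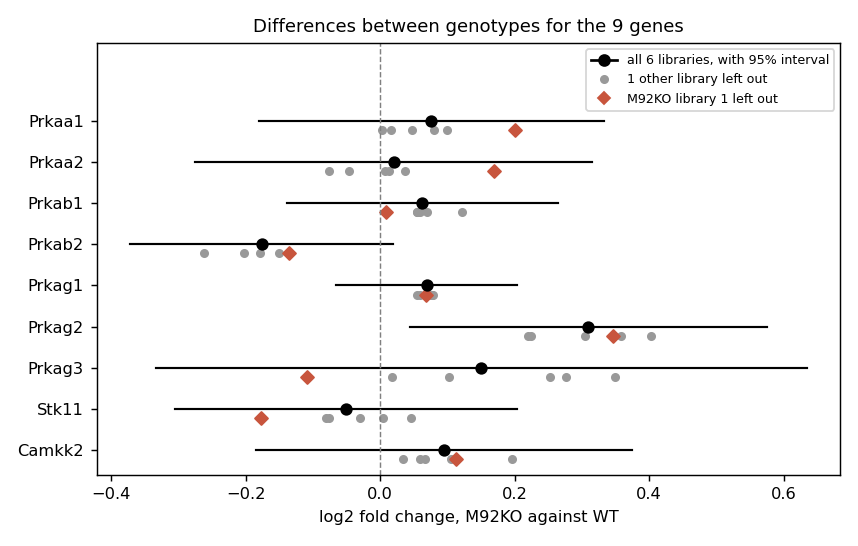
Log2 fold change of M92KO against WT (horizontal axis) for the 9 genes from edgeR, with all 6 libraries (black, bar 95% interval), with M92KO library 1 left out (red diamonds) and with each other library left out (grey). Intervals of 8 genes cross 0 and that of Prkag2 runs from 0.04 to 0.58, and the red diamonds lie farthest from the black points in Prkaa1, Prkaa2, Prkag3 and Stk11.

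Without M92KO library 1, 4 of the 9 members had an unadjusted p under 0.05 in edgeR, where 18.6% of all genes tested had one. Prkaa1, Prkaa2 and Prkag2 were higher in M92KO and Stk11 was lower, and 0 of the 9 had an adjusted p under 0.05, a call made for 2.48% of genes. The groups then did not overlap in 5 of the 9 members, with Prkaa1, Prkaa2, Prkag1 and Prkag2 higher and Stk11 lower, against 37.3% of all genes with 2 M92KO libraries and 3 WT libraries.

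Ordered by WT mean level per kilobase of exon, Prkab2 came first with 87.4 ± 3.22 CPM per kb (n = 3, SD), then Prkaa2 with 53.2 ± 1.09, Prkag3 with 38.3 ± 8.92, Prkag1 with 30.7 ± 0.493 and Stk11 with 26.1 ± 1.73. These 5 were well above Prkaa1 (6.63 ± 0.233 CPM per kb), Prkab1 (4.94 ± 0.0474), Prkag2 (2.52 ± 0.306) and Camkk2 (0.592 ± 0.0700). The WT values of neighbours in this order did not overlap except for Prkag3 and Prkag1. In M92KO the order was the same, with Prkaa2 from 42.2 to 60.9 CPM per kb overlapping Prkag3 from 34.7 to 56.4. With the longest transcript in place of all exons joined, Prkab1 (7.24 CPM per kb in WT) moved above Prkaa1 (6.63). On that length the M92KO mean of Prkag3 (55.2 CPM per kb) was also above that of Prkaa2 (53.97). In bulk muscle RNA, fewer cells of a type and less RNA per cell cannot be told apart, so a minor gene may be low in muscle fibres or come from other cells.

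The gene models of GRCm38 place Prkaa1 on chromosome 15 (5143861 to 5181899, plus strand), Prkaa2 on 4 (105029874 to 105109890, minus), Prkab1 on 5 (116013586 to 116024508, minus) and Prkab2 on 3 (97658193 to 97673812, plus). Prkag1 lies on 15 (98812797 to 98831521, minus), Prkag2 on 5 (24862744 to 25100642, minus), Prkag3 on 1 (74738922 to 74749221, minus), Stk11 on 10 (80115803 to 80130682, plus) and Camkk2 on 5 (122731170 to 122779409, minus). Exons of Prkag1, Prkag2 and Stk11, and 9 bases of Prkab2, overlap genes on the other strand, and whether the counting used strand is not given in the sources used here, so reads of both could not be told apart. The partner of Prkag1, B130046B21Rik, had 0 to 7 counts per library, that of Prkag2 with a row in the table, Prkag2os1, had 0 to 5, and that of Stk11, Cbarp, had 30 to 64, against at least 617 counts for Prkag1, Prkag2 and Stk11.

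Among all 15788 genes tested, the 3 with the profile most like that of Prkag2 over the 6 libraries were Relb, an NF-κB subunit gene (root mean square difference of centred log2 CPM 0.040), Phlda3, a p53 target gene (0.049), and Psme2b, which is related to the gene of a proteasome activator subunit (0.051). Relb had 7.72, 6.81 and 6.35 CPM in WT and 8.78, 8.27 and 9.91 CPM in M92KO. As in Prkag2, WT library 3 was lowest and M92KO library 3 highest, a likeness by which Relb was picked. Phlda3 had 348, 301 and 285 CPM in WT and 374, 388 and 436 CPM in M92KO, and Psme2b 8.07, 7.43 and 6.68 CPM in WT and 8.89, 7.91 and 10.2 CPM in M92KO. The edgeR adjusted p-values of these 3 genes lay at 0.294, 0.220 and 0.428, respectively.

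The surroundings of the kinase were described with 4 hand-written lists of 69 other genes of the pathway, of which 68 were tested. At an adjusted p of 0.05 edgeR called 0 of them, and at an unadjusted p 7 were higher and 9 lower in M92KO (all genes, 5.47% and 6.92%). The groups did not overlap in 6 higher and 6 lower genes. Over all genes, 18.4% had groups that did not overlap, 8.77% with M92KO higher. The median log2 fold change of the 68 was -0.01. DESeq2's Wald test called 1, Hdac4, where it called 2.41% of all genes. Without M92KO library 1 edgeR called 9 of the 69, all of which passed the filter in that fit, against 2.48% of all genes. Of these 9, Tbc1d1, Acaca, Ppp2ca, Nuak1, Ppm1b, Cab39 and Gys1 were higher and Hdac4 and Pfkfb3 lower.

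Of 17 upstream partners and regulators, 3 were higher and 0 lower at an unadjusted p under 0.05 in edgeR (all genes, 5.47% and 6.92%). The list had a median log2 fold change of 0.08. Without M92KO library 1 the median was 0.15, with 7 higher and 0 lower, where 18.6% of all genes had such a p. Cab39, which encodes the MO25α scaffold of the LKB1 complex, had 233, 231 and 225 CPM in WT and 238, 373 and 327 CPM in M92KO. M92KO library 1 stood just above the WT range and the other 2 well above it, a log2 fold change of 0.45 (SE 0.14, edgeR adjusted p = 0.283) that became 0.61 without that library (edgeR adjusted p = 0.00602). Ppm1b, a protein phosphatase of the PP2C family, and Ppp2ca, the catalytic subunit of PP2A, both belong to phosphatase families that can remove the activating phosphate. Their log2 fold changes were 0.23 and 0.20 (edgeR adjusted p = 0.388 and 0.3899), and 0.33 and 0.28 without M92KO library 1 (edgeR adjusted p = 0.0353 and 0.0313). Stk11 itself was not higher, as given above.

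LKB1 also activates a family of AMPK-related kinases, of which 11 of 12 were tested (Brsk2 was removed by the filter on low counts). The list had 1 gene higher and 3 lower at an unadjusted p under 0.05 in edgeR (all genes, 5.47% and 6.92%), with a median log2 fold change of -0.08. Without M92KO library 1 it had 1 higher and 1 lower, with a median of -0.08, where 18.6% of all genes had such a p. Nuak1, a kinase known for its role in cell adhesion, had 23.7, 21.7 and 21.6 CPM in WT and 25.7, 32.4 and 28.8 CPM in M92KO. Its groups did not overlap, with a log2 fold change of 0.38 (SE 0.098, edgeR adjusted p = 0.214) that was called without M92KO library 1 (0.46, adjusted p = 0.0348). Snrk, the SNF-related kinase, had a log2 fold change of -0.44 (SE 0.14, edgeR adjusted p = 0.2805). Nuak2 had one of -0.86 (SE 0.298, edgeR adjusted p = 0.314). The groups of both overlapped.

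The 25 substrate genes were split, with 3 higher and 5 lower at an unadjusted p under 0.05 in edgeR (all genes, 5.47% and 6.92%). Their median log2 fold change was 0.01. Without M92KO library 1 it was 0.04, with 7 higher and 5 lower, where 18.6% of all genes had such a p. Hdac4, a histone deacetylase that represses metabolic genes until it is phosphorylated and leaves the nucleus, had the smallest p of all lists described here. It had 65.5, 65.1 and 70.1 CPM in WT and 49.6, 53.4 and 49.5 CPM in M92KO, with every M92KO library below every WT library. The log2 fold change was -0.40 (SE 0.068, edgeR adjusted p = 0.165, DESeq2 adjusted p = 0.00115), and it was -0.38 without M92KO library 1 (edgeR adjusted p = 0.0315). Srebf1, a transcription factor gene of lipid synthesis, had 48.9, 48.6 and 55.4 CPM in WT and 68.8, 62.1 and 56.5 CPM in M92KO. Its log2 fold change was 0.29 (SE 0.091, edgeR adjusted p = 0.2705), and that of the endothelial nitric oxide synthase gene Nos3 was -0.26 (SE 0.086, edgeR adjusted p = 0.304).

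In 4 substrate genes chosen after their values were seen, the call depended on M92KO library 1. Tbc1d1, a Rab GTPase-activating protein that restrains glucose transporter traffic, had 248, 214 and 193 CPM in WT and 174, 397 and 354 CPM in M92KO. Its lowest library and its 2 highest were all M92KO, with a log2 fold change of 0.50 (SE 0.26, edgeR adjusted p = 0.493) that was 0.78 without library 1 (edgeR adjusted p = 0.0122). Gys1, muscle glycogen synthase, had 727, 693 and 688 CPM in WT and 719.9, 982 and 984 CPM in M92KO, with a log2 fold change of 0.35 that became 0.48. Acaca, the cytosolic acetyl-CoA carboxylase, went from 0.29 to 0.42. Pfkfb3, which makes the phosphofructokinase activator fructose-2,6-bisphosphate, had 701, 881 and 628 CPM in WT and 630.0, 270.4 and 315 CPM in M92KO, with a log2 fold change of -0.86 that became -1.33. M92KO library 1 lay within the WT range in Gys1, Acaca and Pfkfb3, and below it in Tbc1d1.

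The 15 genes of adenine nucleotide and phosphocreatine turnover set the AMP and ATP levels to which AMPK responds. At an unadjusted p under 0.05 in edgeR 0 were higher and 1 was lower (all genes, 5.47% and 6.92%), and the median log2 fold change was -0.04. Without M92KO library 1 the median was -0.12, with 2 higher and 1 lower, where 18.6% of all genes had such a p. Nt5c1a, the cytosolic nucleotidase that turns AMP into adenosine, had 54.0, 55.1 and 55.4 CPM in WT and 41.2, 49.97 and 51.2 CPM in M92KO, a log2 fold change of -0.21 (SE 0.0895, edgeR adjusted p = 0.395). Every M92KO library of Nt5c1a was below every WT library, and dropping 1 library at a time gave log2 fold changes from -0.27 to -0.12. Adenylate kinase 1 (Ak1), which makes AMP and ATP from ADP, had one of -0.16 (edgeR adjusted p = 0.4799), and its groups did not overlap either. Nt5c2, another cytosolic nucleotidase, had one of 0.31 (edgeR adjusted p = 0.491).

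**Figure D4:**
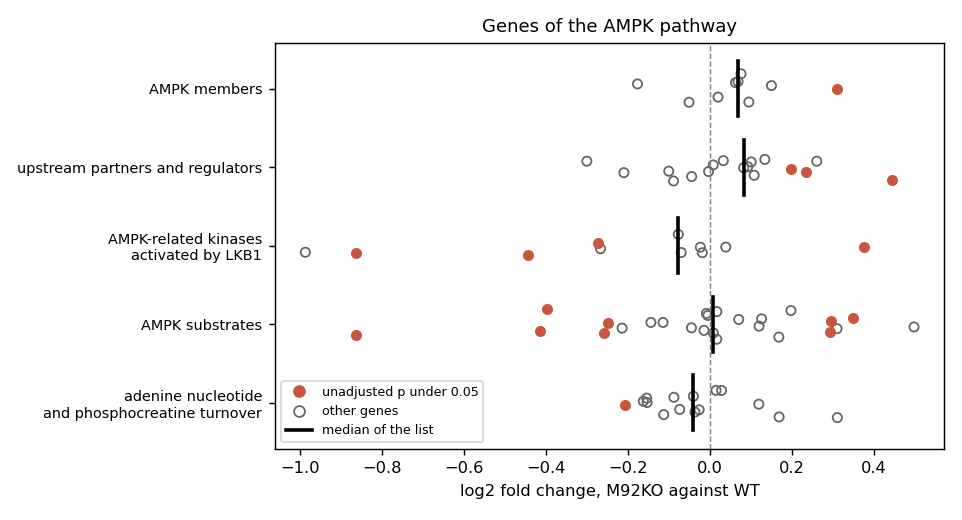
Log2 fold change of M92KO against WT (horizontal axis) for the 9 members and the 4 lists of other pathway genes, 1 circle for each gene, filled where the unadjusted edgeR p was under 0.05, with a bar at each list's median. The medians lie between -0.08 and 0.08, and filled circles lie on both sides of 0 in the AMPK-related kinases and the substrates.

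Markers of other cells and of feeding state were summed beside these values. At an unadjusted p under 0.05 in edgeR, 5.47% of all genes tested were higher and 6.92% lower. Fast muscle markers (10 genes) had 0 higher and 0 lower at an unadjusted p under 0.05 in edgeR, a median log2 fold change of 0.01, and a summed level of 123680 to 137918 CPM in WT and 123477 to 135812 in M92KO. Of 7 fibroblast markers 0 were higher and 3 lower (median -0.38, or -0.19 without M92KO library 1), and their sum was 1755 to 2317 CPM in WT and 1187 to 1636 in M92KO, which did not overlap. Among 8 slow muscle markers 1 was higher, with a median of -0.22 that was -0.01 without M92KO library 1 and 0.12 without WT library 3. Among 7 endothelial, 7 macrophage and leukocyte and 7 Schwann cell markers 2, 1 and 3 were lower, with medians of -0.14, -0.14 and -0.23. Without M92KO library 1 these were -0.07, -0.048 and -0.22, and without M92KO library 3 the Schwann cell median was -0.03. Fat cell (6 of 7 tested) and red cell markers (5 of 6 tested) had medians of 0.73 and 0.66 with 0 at that p. The fat cell sum was 313 to 363 CPM in WT and 312 to 392 in M92KO. That of red cells was 74.0 to 223 CPM in WT and 143 to 336 in M92KO, and both sums overlapped. The fat cell median rests partly on genes with few counts, down to 4 in a library. The fat cell median was 0.048 without M92KO library 2, and it was 1.35, with 3 genes higher at that p, without WT library 3. The red cell median was 0.30 without WT library 3 and 0.97, with 3 genes higher, without M92KO library 2. Of 10 genes that rise in muscle on fasting, 0 were higher and 5 lower at that p, with a median log2 fold change of -0.63. Pdk4, which blocks the entry of pyruvate into mitochondria, had the smallest p of these 10. Its levels were 864, 1774 and 1250.1 CPM in WT and 753, 481 and 435 CPM in M92KO. Fbxo32 (-0.31), Cebpd (-0.30), Klf15 (-0.15) and Trim63 (-0.10) were lower without such a p. Txnip was higher (0.18), also without such a p. The labels give free access to food. The study's general methods describe an overnight fast before muscle was taken from treated mice, and they do not state separately whether it applied to the untreated mice of these libraries. None of the marker genes was at or under 3 counts in every library, and the part of these markers in the members' values was not tested.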

How the data were processed

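Libraries were made with a SMARTer kit from Gas RNA per the labels. The authors deposited raw read counts on 34714 gene symbols, with no normalization. Builds GRCm38 and mm10 are named in the submitters' processing notes, and the aligner, counter, annotation and strand setting are not given in the sources used here. The test was edgeR 4.0.16 in R 4.3.3 (filterByExpr with minimum count 10 and minimum total 15, TMM, glmQLFit and glmQLFTest, no covariate), which left 15788 genes. Intervals are 95% and n is 3 libraries in each group. Exact permutation tests of single genes used log2 of CPM plus 0.5. Those of the shares, the log2 ratio and the summed levels used these values without further transformation. Exon lengths, positions and 3′-UTRs of at least 20 bases came from GENCODE M21, where 25731 symbols matched directly, 421 by a RefSeq synonym and 8562 did not. Python 3.11.15 made tables and figures. The fit was tested on simulated data.

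The members and lists were chosen with earlier results of these data known. The genes named are the 9 members, Mir92b, in each of the 4 pathway lists the 3 tested genes with the smallest unadjusted p, and the 3 genes most like the member with the smallest p. Marker lists are given by their counts, with Acta1 and Ckm as defining genes. Myh1, Myh4, Pdk4, Fbxo32, Cebpd, Klf15, Trim63, Txnip, Tbc1d1, Gys1, Acaca and Pfkfb3 are named outside this rule and were picked with their values known. Alternatives were DESeq2 size factors in edgeR, DESeq2 1.42.0, the study's supplementary steps (quantile normalization, log2 of value plus 1, limma 3.58.1), the replicate number as a block, offsets for GC content and length (lowess span 0.3), other filters, other lengths and each library left out. Floors cover counting error only, and the intervals of log2 fold changes include the spread between libraries. Reads and protein measurements were not analysed here.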

Additional observations from a re-analysis of the deposited data

How the results depend on the processing

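Of the 117 combinations of the 9 members and 13 alternatives, 111 kept the direction of the log2 fold change and its side of the adjusted threshold, and 6 turned the direction. Prkaa2 went to -0.027 under the supplementary steps and ran from -0.075 to 0.17 with each library left out, Prkag3 ran from -0.11 to 0.35 and Stk11 from -0.18 to 0.045. No member had an adjusted p under 0.05 in any of these 13 alternatives. The count of members at an unadjusted p under 0.05, 1 in the reported fit, was 2 under the supplementary steps (Prkab2, lower, and Prkag1, higher, but not Prkag2) and 0 to 4 with a library left out, with 0 without WT library 2, WT library 3 or M92KO library 3. Over all genes, such a p was held by 1955 of 15788 in the reported fit and 2287 of 34714 under the supplementary steps. The supplementary steps were run with no filter, and 23231 of the 34714 symbols had any count, so these shares are not alike. It was held by 1221 of 15970 without WT library 2 and 2984 of 16058 without M92KO library 1. Without WT library 3 it was held by 1272 of 15997, and without M92KO library 3 by 1710 of 16073. Members whose groups do not overlap numbered 2 to 5, with 4 without WT library 1. Over all genes, 18.4% did not overlap with all 6 libraries and 37.3% without M92KO library 1. That share was not computed with another library left out, so the 4 members without WT library 1 cannot be read against it. Of the other pathway genes, 1 was called by DESeq2 and 0 to 9 with a library left out. At an unadjusted p, 16 in the reported fit became 8 under the supplementary steps and 5 to 24 with a library left out. The cause of these changes was not tested. Counts over all genes with an adjusted p under 0.05 were 0 in the reported fit, 322 by DESeq2, 6 with no filter on low counts, 42 under the supplementary steps and 399 without M92KO library 1, the other left-out libraries giving 0 to 5. With 8mer matches alone, 0 members matched miR-92b-3p, in place of 4, and 0 matched miR-92b-5p, in place of 1. The differences between M92KO and WT in the 3 shares and in the ratio of Stk11 to Camkk2 moved by less than 1 SD between replicates, but that of Prkab2 ran from -1.22 to -0.54 percentage points and that of Prkag3 from -3.003 to 3.95 with a library left out. The levels themselves depended on length. With no division by length the WT shares were 93.2% for Prkaa2, 96.7% for Prkab2 and 62.4% for Prkag3, and the WT log2 ratio was 4.21. With the longest transcript the Prkab2 share was 92.5% and the log2 ratio 4.62.

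The labels give both genotypes replicate numbers 1 to 3. Deviations from the group means of same-numbered libraries correlated at 0.081, 0.038 and 0.015, none over 0.1, so the numbers were not taken as pairs. With the replicate number as a block, 1 member had an unadjusted p under 0.05 in edgeR, as had 1691 of 15788 genes. In that fit 0 members and 2 genes in all had an adjusted p under 0.05. Prkag2 had a log2 fold change of 0.31 (edgeR adjusted p = 0.453), and the block changed no member's call.

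With 3 mice in each genotype an exact test cannot go below p = 0.1, and the widest 95% interval of a member's log2 fold change, that of Prkag3, ran from -0.33 to 0.63. Camkk2, with 223 to 339 counts in a library, has the least depth of the members.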
